A study of Mus musculus with 3 samples.

Results

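The prostaglandin genes examined here were 10 genes, chosen by name from the 34742 genes of the deposited table: Pla2g4a, Ptgs1, Ptgs2, Ptges, Ptges2, Ptges3, Ptgis, Hpgd, Ptger2 and Ptger4. All 10 were found. RNA-seq of total RNA was carried out on cultured lung mesenchymal stromal cells (LMSCs) from mice carrying MMTV-PyMT, a transgene in which a mammary tumour virus promoter drives the polyoma middle T antigen, so that mammary tumours arise and spread to the lung. A-LMSCs came from mice at the adenoma stage at 7 weeks of age, PM-LMSCs from the pre-metastatic stage at 11 weeks and M-LMSCs from the metastatic stage at 13 weeks, with 1 library per stage and no library of mice without the transgene was used here. Per the study's methods, the cells were the adherent fraction of digested lung on the FVB background, cleared of leukocytes by beads against CD45 and kept in culture until passage 3. Stage, age and culture cannot be told apart, the study counts 1 mouse per stage for these libraries, and with no replicates the stage differences cannot be set against a spread between cultures.

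Prostaglandins are short-lived lipid signals. A phospholipase frees arachidonic acid from membranes, a cyclooxygenase turns it into prostaglandin H2, and terminal synthases convert this intermediate into prostaglandin E2 (PGE2), prostacyclin and related prostanoids, which act on nearby cells through G protein-coupled receptors before they are broken down. Stromal cells are a known source of PGE2 and prostacyclin in the lung, and PGE2 is one of the signals by which mesenchymal stromal cells act on immune cells.

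The libraries held 13479898, 12594155 and 14338909 counts in stage order (A-LMSC first, then PM-LMSC, then M-LMSC), which is used throughout. Levels are CPM, the share of a library's counts on a per-million scale after TMM scaling, and 3 counts, taken as the floor, lay at 0.272, 0.234 and 0.174 CPM in stage order. Ratios between stages are log2 ratios of CPM + 1, so they understate the difference of low genes. A gene was measured in a comparison where its higher library reached 1 CPM, and it was counted as higher or lower at a 2-fold ratio. Folds quoted with an interval are ratios of CPM without the added 1. All intervals are exact 95% intervals (Poisson for a level, conditional binomial for a fold, Clopper-Pearson for a share) and cover counting error only. The libraries differed widely as a whole: over all measured genes, the log2 ratio had a median of 0.19 for PM-LMSC over A-LMSC, 0.34 for M-LMSC over A-LMSC and 0.03 for M-LMSC over PM-LMSC. Of the genes past 2-fold, 58.3%, 59.6% and 68.8% were the higher ones in these comparisons, against 69.9%, 77.6% and 80.6% with library totals alone and 66.8%, 77.1% and 79.5% with the deposited FPKM. Transcripts richer in GC also had lower log2 ratios, with Spearman's rho of -0.63, -0.71 and -0.39 across 12105, 12606 and 12566 protein-coding genes, which are not independent replicates. Values with the GC and length trend removed are therefore given for most ratios of the prostaglandin genes and for many of the other named pathway genes. A stage difference given without one may be smaller, absent, reversed or larger with the trend removed. The 12 control genes also spread widely, with log2 ratios between -1.49 and 2.94, between -1.71 and 3.02 and between -0.89 and 2.02. Among them Actb had 6693, 3983 and 2156 CPM, Gapdh 621, 251 and 212 CPM and Tbp 1.63, 13.6 and 12.8 CPM by stage.

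Markers of the labelled cells were present. All 12 LMSC and fibroblast markers had counts in each library, with Itgb1 at 42.6, 1846 and 2074 CPM, Cd44 at 55.1, 303.4 and 261.8 CPM and Nes at 60.0, 965.5 and 361.7 CPM in stage order. Lum, of the same list, had only 15, 3 and 20 counts. In M-LMSC 6 of the 12 were at least 2-fold higher and 5 lower than in A-LMSC, against 41.0% and 27.7% of all measured genes. Among the lower ones, named after their values were seen, were Col1a1 at 16401, 7267 and 1815 CPM and Pdgfrb at 758, 531 and 292 CPM. The list's summed level was 34153, 18513 and 7081 CPM. Mammary epithelial markers summed to 48.6, 98.9 and 1235 CPM. In M-LMSC, 11 of the 12 measured epithelial markers were at least 2-fold higher than in A-LMSC and also than in PM-LMSC. All measured genes gave 41.0% and 17.3% in these comparisons. Epcam had 1, 42 and 879 counts, Krt8 23, 260 and 5020 counts and Krt18 46, 201 and 4095 counts. Of the markers at 0 in a library, Wap had 0 counts in each, Csn3 0, 0 and 253 counts and Elf5 4, 0 and 36 counts. Leukocyte markers summed to 116, 329 and 213 CPM, with Ptprc at 0, 3 and 9 counts, Cd68 at 114, 181 and 173 counts and Adgre1 at 0, 146 and 86 counts. Mesothelial markers summed to 35.4, 82.9 and 101 CPM (Msln 4.53, 10.5 and 74.5 CPM; Upk3b 9.61, 4.45 and 3.25 CPM; Wt1 6.44, 23.0 and 4.24 CPM). Endothelial markers summed to 3.35, 18.2 and 6.44 CPM, with Pecam1 at 2, 17 and 5 counts, Cdh5 at 7, 61 and 12 counts and Kdr at 8, 116 and 56 counts. Lung epithelial markers summed to 117, 1.95 and 12.4 CPM, with Sftpc at 969, 0 and 29 counts, Sftpb at 202, 0 and 13 counts and Sftpa1 at 30, 0 and 7 counts. In bulk RNA a smaller share of expressing cells and less RNA per cell cannot be told apart. The part that other cell types had in the prostaglandin results was not tested.

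Ptgs2 and Pla2g4a, which act at the start of the pathway, were far higher in M-LMSC than in either earlier stage, whereas Ptgs1, Ptges and Ptgis were at their lowest in M-LMSC. The PGE2 receptor genes Ptger2 and Ptger4 had their highest CPM in PM-LMSC, although Ptger2 was not higher there than in A-LMSC with the trend removed. Hpgd, the breakdown enzyme, was near the floor in each library. The plot of levels by stage shows these patterns.

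**Figure D1:**
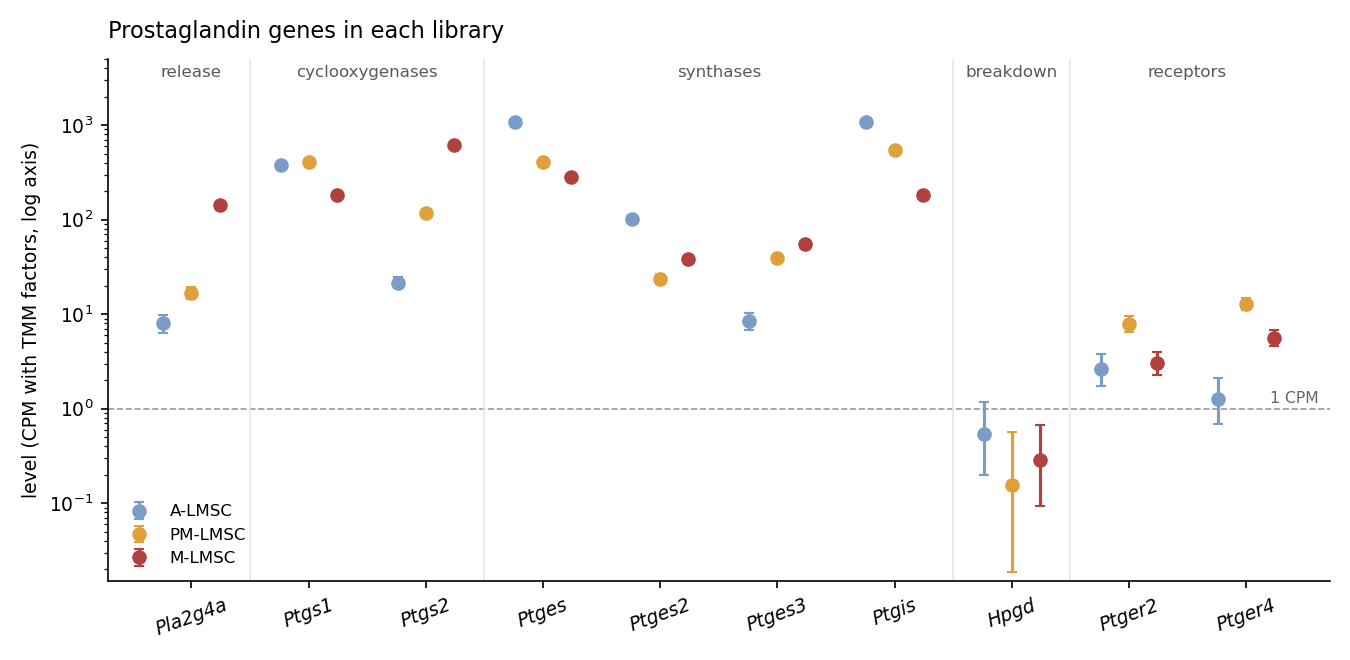
Level of each of the 10 prostaglandin genes (CPM with TMM factors, log axis) in the libraries A-LMSC (blue), PM-LMSC (yellow) and M-LMSC (red), with exact 95% Poisson intervals of the count. Ptgs2 stood at 21.6, 116 and 611 CPM in stage order, while Ptgis stood at 1068, 544 and 183 CPM and Hpgd stayed under 1 CPM.

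The cyclooxygenases carry out the committed step of the pathway. Ptgs2 encodes the inducible enzyme COX2 and Ptgs1 the constitutive enzyme COX1. Ptgs2 (ENSMUSG00000032487, chr1:150100031-150108227, plus strand, GRCm38) is an immediate early gene whose messenger RNA is known to be unstable through AU-rich elements in its 3′ UTR. The first 30-base stretch of that UTR with the most ATTTA pentamers, bases 12 to 41 after the stop codon (chr1:150105794-150105823), is shown because these elements are the best known control of the transcript, with the pentamers in capitals.
Ptgs2 3′ UTR: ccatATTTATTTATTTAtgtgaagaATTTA
The stretch held 4 pentamers, some of which share bases. The whole 3′ UTR held 14 in 2445 bases, more than in 97.1% of 20941 protein-coding genes, whose median was 1. Pla2g4a held 4 in 443 bases, or 9.03 per kilobase, a density above that of 98.4% of genes. Ptges2, Ptges3 and Hpgd held 4 each, Ptger4 held 5 and Ptger2 held 6, whereas Ptgs1, Ptges and Ptgis held 0. Of the 4 members that were at least 2-fold lower in M-LMSC than in A-LMSC, Ptges2 was thus the only one with a pentamer. The pentamer holds only A and T, and these 4 members also have the highest transcript GC content of the 10, 51.0% to 56.6%. Pentamer number and base composition can therefore not be told apart here. The counts of pentamers describe the sequence and not its use in these cells.

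Ptgs2 had 238, 1491 and 10536 counts in stage order, or 21.6 CPM (18.9 to 24.5), 116 CPM (111 to 123) and 611 CPM (599.6 to 623.0). The intervals of the 3 libraries were far apart. M-LMSC was 28.3-fold (24.9 to 32.4) above A-LMSC and 5.25-fold (4.97 to 5.54) above PM-LMSC, and PM-LMSC was 5.40-fold (4.71 to 6.22) above A-LMSC. The log2 ratios of 4.76, 2.38 and 2.38 exceeded those of 99.5%, 96.9% and 87.5% of all measured genes. With the GC and length trend removed they were 2.56, 1.32 and 1.20, above those of 97.4%, 92.9% and 84.7% of measured genes. The 2-fold difference was met in each comparison under all 9 alternatives. Ptgs2 has the lowest transcript GC content of the 10 genes, 40.0%. Mammary epithelial markers moved in the same direction (above), and their part in the Ptgs2 level was not tested. The noncoding RNAs annotated on the other strand beside Ptgs2, added after their values were seen, had 13, 41 and 29 counts for Ptgs2os and 9, 21 and 183 counts for Ptgs2os2 in stage order.

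Ptgs1 (ENSMUSG00000047250, chr2:36230426-36252272, plus strand) had 4164, 5183 and 3158 counts, or 377, 405 and 183 CPM in stage order. The earlier stages were close, at 1.07-fold (1.03 to 1.12) for PM-LMSC over A-LMSC. M-LMSC was lower, with log2 ratios of -1.14 against PM-LMSC and -1.04 against A-LMSC, both just past 2-fold. Neither met 2-fold with library totals, FPKM or the trend removed, where they were -0.84 and -0.89.

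The balance of the pair within a library needs no scaling between libraries, but its shift between stages is open to the GC trend. Ptgs2 took 5.41% (4.76 to 6.12) of the counts of both cyclooxygenases in A-LMSC, 22.3% (21.3 to 23.4) in PM-LMSC and 76.9% (76.2 to 77.6) in M-LMSC. By FPKM, which rests on the depositors' gene lengths, the shares were 6.74%, 26.7% and 80.8%. The longest annotated transcripts have 4453 bases for Ptgs2 and 2867 for Ptgs1. With these lengths the Ptgs2 shares would lie below the count shares and not above them, so the FPKM shares hold for that measure only. As counted, Ptgs1 was thus the more abundant cyclooxygenase transcript in A-LMSC and PM-LMSC and Ptgs2 in M-LMSC. The trend can only be removed from differences between libraries, so 1 library has to be kept as counted. With A-LMSC kept, the shares of Ptgs2 were 5.41%, 11.7% and 38.4% in stage order, and Ptgs1 stayed the larger in each library. With M-LMSC kept, they were 23.4%, 42.6% and 76.9%. The share of Ptgs2 was thus highest in M-LMSC either way, while the change of the larger transcript depended on the library kept. These alternatives were chosen after seeing the data. The summed FPKM of the pair is drawn in the plot of composition.

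**Figure D2:**
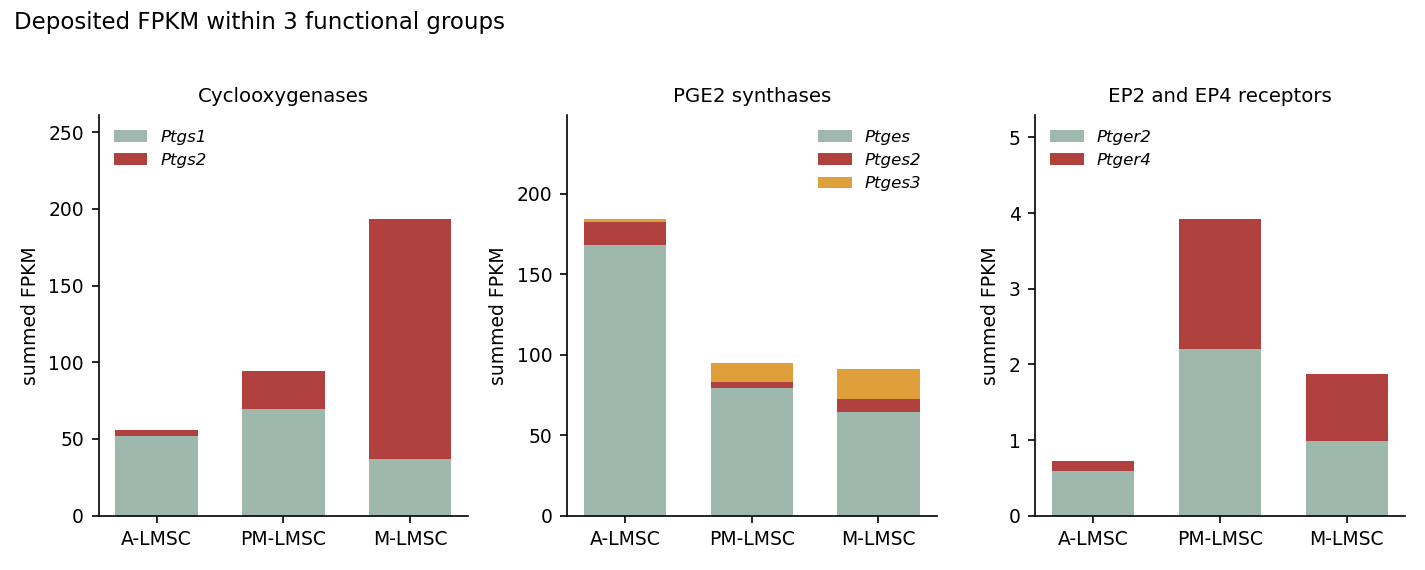
Deposited FPKM, summed within the cyclooxygenases, the PGE2 synthases and the EP2 and EP4 receptors, for each of the stages (1 library each, no error bars). Ptgs2 made up 6.74%, 26.7% and 80.8% of cyclooxygenase FPKM in stage order, while Ptges stayed the largest part of the PGE2 synthases in each library.

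The Ptgs2 promoter is shown because induction of this gene is known to run through short elements near its start. The window of 250 bases before to 50 after the start (RefSeq, GRCm38.p6, chr1:150099781-150100080, plus strand) is printed with motif matches in capitals. The motifs searched on both strands were the E-box CACGTG, the core TGACG of the cyclic AMP response element, the C/EBP palindrome TTGCGCAA, the Sp1 element GGGCGG, the initiation element TATAAA and the NF-kB motif, which is given by name.
Ptgs2: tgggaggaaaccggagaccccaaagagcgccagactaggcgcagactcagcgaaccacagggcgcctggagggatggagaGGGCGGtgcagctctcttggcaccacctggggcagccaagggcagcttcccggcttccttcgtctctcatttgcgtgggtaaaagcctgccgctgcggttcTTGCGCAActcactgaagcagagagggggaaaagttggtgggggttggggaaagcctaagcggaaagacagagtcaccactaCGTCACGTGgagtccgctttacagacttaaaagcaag
Counted from the start, GGGCGG lay at -170 to -165, TTGCGCAA at -69 to -62, TGACG on the other strand at 14 to 18 and CACGTG at 17 to 22, so that the last 2 overlapped by shared bases. Among 32851 mouse promoter windows of the same length, GGGCGG was found in 35.7%, TTGCGCAA in 0.183%, TGACG in 20.8% and CACGTG in 7.15%. Ptgs2 was the only one of the 9 matched prostaglandin genes with TTGCGCAA. Neither TATAAA nor the NF-kB motif, present in 13.6% and 8.46% of windows, was found in these letters.

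Pla2g4a encodes cytosolic phospholipase A2 alpha, which frees arachidonic acid and so feeds both cyclooxygenases. It lies next to Ptgs2 on chromosome 1 (ENSMUSG00000056220, chr1:149829618-149961290, minus strand), 138740 bases away, with 0 protein-coding genes between them and the 2 genes transcribed away from each other. RefSeq gives 2 promoter windows for it (GRCm38.p6, minus strand). The upstream one (chr1:149961241-149961540) is shown beside that of its neighbour and held none of the 6 motifs. The other (chr1:149922390-149922689) held TATAAA on its other strand at -200 to -195 from that start.
Pla2g4a: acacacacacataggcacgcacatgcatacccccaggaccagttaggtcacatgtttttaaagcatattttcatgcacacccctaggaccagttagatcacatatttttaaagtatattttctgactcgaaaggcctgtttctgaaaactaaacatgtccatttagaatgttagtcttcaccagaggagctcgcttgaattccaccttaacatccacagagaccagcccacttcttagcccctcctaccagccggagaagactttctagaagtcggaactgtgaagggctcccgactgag
Pla2g4a had 88, 215 and 2458 counts in stage order, or 7.98 CPM (6.40 to 9.83), 16.8 CPM (14.6 to 19.2) and 143 CPM (137 to 148). M-LMSC was 17.9-fold (14.5 to 22.4) above A-LMSC and 8.49-fold (7.38 to 9.81) above PM-LMSC. These log2 ratios of 4.00 and 3.01 exceeded those of 97.1% and 98.9% of measured genes. With the trend removed they were 1.92 and 2.57, above those of 93.4% and 98.9% of measured genes. Both met 2-fold under all 9 alternatives. The step between the earlier stages was not secure. PM-LMSC was 2.11-fold (1.64 to 2.73) above A-LMSC, a log2 ratio of 0.99 that became -0.59 with the trend removed. Most of the Pla2g4a difference thus lay between PM-LMSC and M-LMSC, whereas that of Ptgs2 had the same log2 size, 2.38, at each step.

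The terminal synthases showed another order. Ptges, the microsomal PGE2 synthase that is known to couple to COX2, and Ptgis, the prostacyclin synthase, were the most abundant of the 10 transcripts in A-LMSC, at 168 and 279 FPKM. Both had lower CPM at each later stage. The Ptges promoter window (RefSeq, GRCm38.p6, chr2:30903248-30903547, minus strand) is printed because Ptges and Ptgs2 often respond together, with its 2 GGGCGG matches in capitals. None of the other 5 motifs was found in it.
Ptges: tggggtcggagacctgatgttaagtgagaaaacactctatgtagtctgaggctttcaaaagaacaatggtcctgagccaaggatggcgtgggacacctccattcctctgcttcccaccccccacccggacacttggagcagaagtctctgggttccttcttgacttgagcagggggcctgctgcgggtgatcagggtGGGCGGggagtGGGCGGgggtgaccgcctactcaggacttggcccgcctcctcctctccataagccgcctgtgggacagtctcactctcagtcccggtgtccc
Ptges (ENSMUSG00000050737, chr2:30889471-30929863, minus strand) had 11920, 5235 and 4849 counts, or 1080, 409 and 281 CPM in stage order. PM-LMSC was 2.64-fold (2.56 to 2.73) lower and M-LMSC 3.84-fold (3.71 to 3.97) lower than A-LMSC, and M-LMSC was 1.45-fold (1.40 to 1.51) lower than PM-LMSC. The log2 ratios against A-LMSC of -1.40 and -1.94 were -1.07 and -1.33 with the trend removed and passed 2-fold under all 9 alternatives. The opposite positions of Ptges and Ptgs2 in M-LMSC were therefore kept under these settings.

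Ptgis (ENSMUSG00000017969, chr2:167191805-167240604, minus strand) had 11778, 6970 and 3157 counts, or 1068, 544 and 183 CPM. M-LMSC was 5.83-fold (5.60 to 6.06) lower than A-LMSC and 2.97-fold (2.85 to 3.10) lower than PM-LMSC. Only 1.30% and 2.24% of measured genes had lower log2 ratios than its -2.54 and -1.57. With the trend removed these were -0.999, just inside 2-fold, and -1.38, and 18.8% and 3.87% of measured genes then lay lower. PM-LMSC over A-LMSC gave -0.97, which became 0.36 with the trend removed, so the direction between the earlier stages depends on this setting. Ptgis also has the highest transcript GC content of the 10 genes, 56.6%. By FPKM it was the first of the 10 in A-LMSC and PM-LMSC and the second in M-LMSC, after Ptgs2, which ranked 5, 4 and 1 in stage order.

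Ptges2 and Ptges3 encode the other PGE2 synthases, and the product of Ptges3 is better known as p23, a partner of the chaperone Hsp90. Ptges2 (ENSMUSG00000026820, chr2:32395896-32405772, plus strand) had 1120, 302 and 660 counts, or 102, 23.6 and 38.3 CPM. It was lowest in PM-LMSC, 4.30-fold (3.79 to 4.90) lower than A-LMSC, with a log2 ratio of -2.06 (-1.63 with the trend removed). M-LMSC was 2.65-fold (2.41 to 2.92) lower than A-LMSC and 1.62-fold (1.41 to 1.87) higher than PM-LMSC. Its log2 ratio for M-LMSC over A-LMSC of -1.38 did not reach 2-fold with library totals, FPKM or the trend removed (-0.74).

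Ptges3 (ENSMUSG00000071072, chr10:128058954-128077272, plus strand) had 93, 508 and 943 counts, or 8.43, 39.7 and 54.7 CPM in stage order. PM-LMSC was 4.71-fold (3.77 to 5.94) and M-LMSC 6.49-fold (5.24 to 8.12) above A-LMSC, with 1.38-fold (1.24 to 1.54) for M-LMSC over PM-LMSC. Its log2 ratios against A-LMSC of 2.11 and 2.56 were 0.94 and 0.69 with the trend removed, below 2-fold. For M-LMSC over PM-LMSC, 0.45 became -0.22. A processed pseudogene, Ptges3-ps, is annotated elsewhere in the genome, and because the handling of shared reads is not given, the Ptges3 level is uncertain to that extent. Within the library, Ptges3 took 1.07%, 12.1% and 20.6% of PGE2 synthase FPKM in stage order, and 0.708% (0.572 to 0.867), 8.40% (7.72 to 9.13) and 14.6% (13.8 to 15.5) of the counts. Ptges took 91.2%, 83.5% and 70.7% of this FPKM and Ptges2 7.77%, 4.37% and 8.73%, so Ptges remained the main PGE2 synthase transcript at each stage. Set against Ptges, Ptgis took 62.4%, 69.1% and 52.2% of their joint FPKM, and was the larger of both in each library. Its shares of their joint counts, which are not per length, were 49.7% (49.1 to 50.3), 57.1% (56.2 to 58.0) and 39.4% (38.4 to 40.5). The shifts of all these shares between stages are open to the GC trend, since transcript GC content is 43.25% for Ptges3, 53.1% for Ptges and 56.6% for Ptgis. Their log2 ratios for M-LMSC over A-LMSC of 2.56, -1.94 and -2.54 were 0.69, -1.33 and -0.999 with the trend removed.

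Hpgd (ENSMUSG00000031613, chr8:56294552-56321046, plus strand), the dehydrogenase that inactivates PGE2 and is abundant in whole lung, had 6, 2 and 5 counts by stage (0.544, 0.156 and 0.290 CPM). It was under 1 CPM in each library, its intervals overlapped, and no difference was detectable at this depth. It is the member left out of the 9 measured ones.

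The receptors were the least abundant members that passed 1 CPM. Ptger2 and Ptger4 encode EP2 and EP4, the PGE2 receptors that raise cyclic AMP through the G protein Gs. Ptger4 (ENSMUSG00000039942, chr15:5206661-5244187, minus strand) had 14, 165 and 97 counts, or 1.27 CPM (0.694 to 2.13), 12.9 CPM (11.0 to 15.0) and 5.63 CPM (4.56 to 6.87) in stage order. PM-LMSC was 10.2-fold (5.88 to 19.0) and M-LMSC 4.43-fold (2.52 to 8.41) above A-LMSC, and M-LMSC was 2.29-fold (1.77 to 2.97) below PM-LMSC. PM-LMSC thus had the highest Ptger4 level, with no overlap of the 3 intervals. The log2 ratio of PM-LMSC over A-LMSC was 2.61 (1.01 with the trend removed), that of M-LMSC over A-LMSC 1.55 (-0.63) and that of M-LMSC over PM-LMSC -1.07 (-1.59). Ptger4 overlaps Ttc33 on the other strand, which had 23, 32 and 253 counts, and because the strandedness of the libraries is not given, reads could not be assigned to one of them with certainty.

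Ptger2 (ENSMUSG00000037759, chr14:44988195-45003820, plus strand) had 29, 102 and 52 counts, or 2.63 CPM (1.76 to 3.78), 7.97 CPM (6.50 to 9.67) and 3.02 CPM (2.25 to 3.96). It was 3.03-fold (1.99 to 4.75) higher in PM-LMSC than in A-LMSC and 2.64-fold (1.87 to 3.76) lower in M-LMSC than in PM-LMSC. M-LMSC and A-LMSC overlapped in their intervals, with a fold of 1.15 (0.715 to 1.88). The log2 ratio of PM-LMSC over A-LMSC was 1.31, and -0.37 with the trend removed. For M-LMSC over PM-LMSC it was -1.16 and -1.46. For M-LMSC over A-LMSC it was 0.15, and -1.91 with the trend removed. The trend is subtracted in full at any level, while the added 1 shrinks the ratios of low genes. Genes with few counts can therefore be overcorrected. In the same comparison Hpgds, with 0 counts in each library, was given -2.20, and Hpgd, with 6 and 5 counts, -2.03. The corrected ratios of Ptger2 and Ptger4 over A-LMSC are open to this limit, and no reversal is read from them. The lower level of both receptors in M-LMSC than in PM-LMSC thus kept its direction, but it did not reach 2-fold with library totals, FPKM or a pseudocount of 5. By deposited FPKM, Ptger4 took 19.0%, 44.0% and 47.5% of the sum of both receptors in stage order. Of their joint counts, Ptger4 took 32.6% (19.1 to 48.5), 61.8% (55.7 to 67.7) and 65.1% (56.9 to 72.7). The longest annotated transcripts were of similar length, 3771 bases for Ptger4 and 3684 for Ptger2. Ptger2 was thus the larger in A-LMSC by both measures, while the larger receptor transcript in PM-LMSC and M-LMSC depended on the measure.

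The members were also counted beside all genes. For PM-LMSC over A-LMSC, 4 of 9 measured members were at least 2-fold higher (Ptgs2, Ptges3, Ptger2 and Ptger4), against 35.0% of all 12727 measured genes. Another 2 were lower (Ptges and Ptges2), against 25.0% of all genes, and the members' median log2 ratio was 0.99. Relative to the median of all genes, Ptgis joined the lower ones, making 3, and the higher ones stayed at 4. All genes on that scale gave 29.6% lower and 31.0% higher. The members counted in the other comparisons stayed the same. All genes there gave 35.0% higher and 35.2% lower for M-LMSC over A-LMSC, and 16.6% and 8.36% for M-LMSC over PM-LMSC. For M-LMSC over A-LMSC, 4 of 9 were higher (Pla2g4a, Ptgs2, Ptges3 and Ptger4) and 4 lower (Ptgs1, Ptges, Ptges2 and Ptgis), against 41.0% and 27.7% of 13223 genes, with a median of 0.15. Both of these comparisons share the A-LMSC library. For M-LMSC over PM-LMSC, 2 of 9 were higher (Pla2g4a and Ptgs2) and 4 lower (Ptgs1, Ptgis, Ptger2 and Ptger4), against 17.3% and 7.85% of 13181 genes, with a median of -0.54. The count of lower members in the last comparison was 1 with library totals, 1 with FPKM and 2 with a pseudocount of 5. The shares over all genes under these settings were 5.18%, 3.69% and 4.76%. The log2 ratios are drawn by gene and setting in the plot of ratios.

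**Figure D3:**
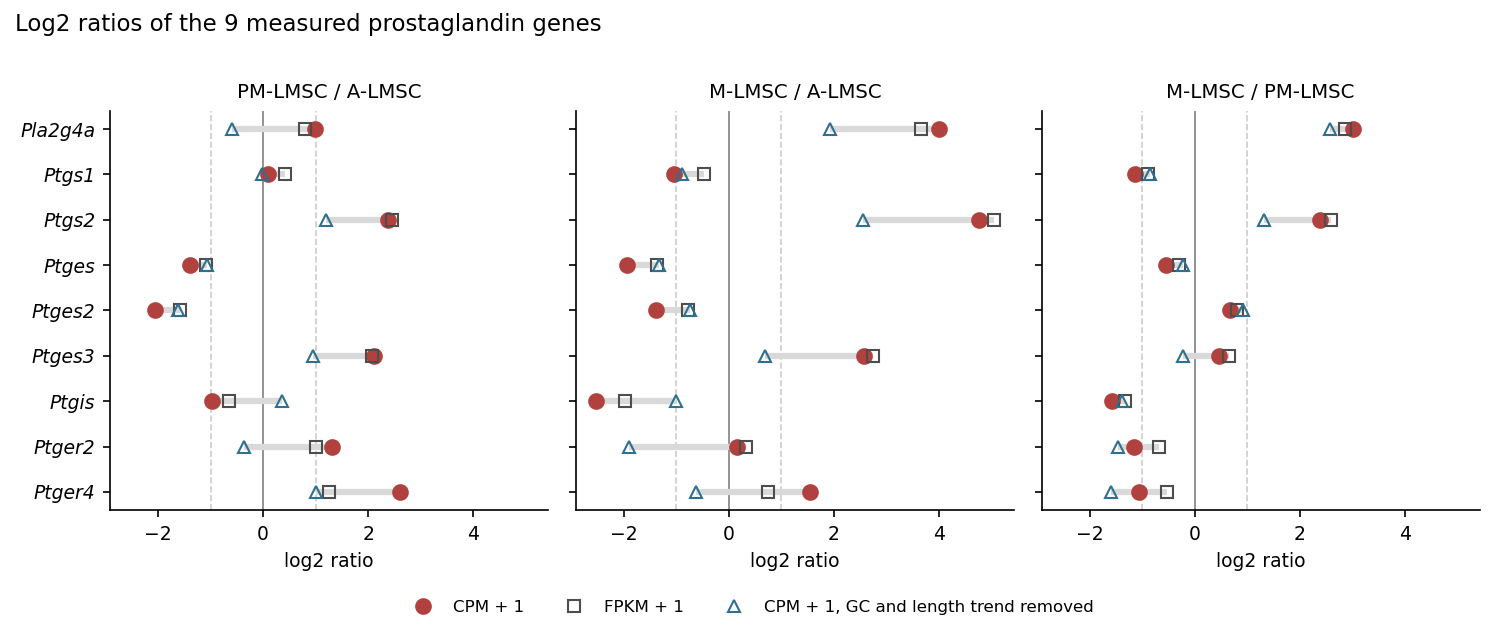
Log2 ratio (x axis) of the 9 measured prostaglandin genes for PM-LMSC over A-LMSC, M-LMSC over A-LMSC and M-LMSC over PM-LMSC, from CPM + 1 (filled circles), FPKM + 1 (squares) and CPM + 1 after removal of the GC and length trend (triangles), with grey bars over their range and dashed lines at 2-fold. Ptgs2 lies to the right of 2-fold in each panel under each measure, and Pla2g4a does so in both panels of M-LMSC.

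The members also split by base composition. The 6 genes with transcript GC content of 40.0% to 44.9% (Ptgs2, Hpgd, Ptges3, Ptger4, Pla2g4a and Ptger2) include each member that was higher in M-LMSC or PM-LMSC than in A-LMSC past 2-fold, and the 4 genes of 51.0% to 56.6% (Ptgs1, Ptges, Ptges2 and Ptgis) include each one that was lower. This is the direction of the trend across all protein-coding genes, as the plot of log2 ratio against GC content shows. With the trend removed, the members' medians were -0.02, -0.74 and -0.23. In PM-LMSC over A-LMSC, 2 members were then at least 2-fold higher (Ptgs2 and Ptger4) and 2 lower (Ptges and Ptges2). All measured genes gave 18.9% higher and 17.0% lower. In M-LMSC over A-LMSC, 2 were higher (Ptgs2 and Pla2g4a) and 2 lower (Ptges and Ptger2). All measured genes gave 18.8% and 18.7%, so both counts lay near these shares. How far the trend reflects the cells or the libraries was not tested.

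**Figure D4:**
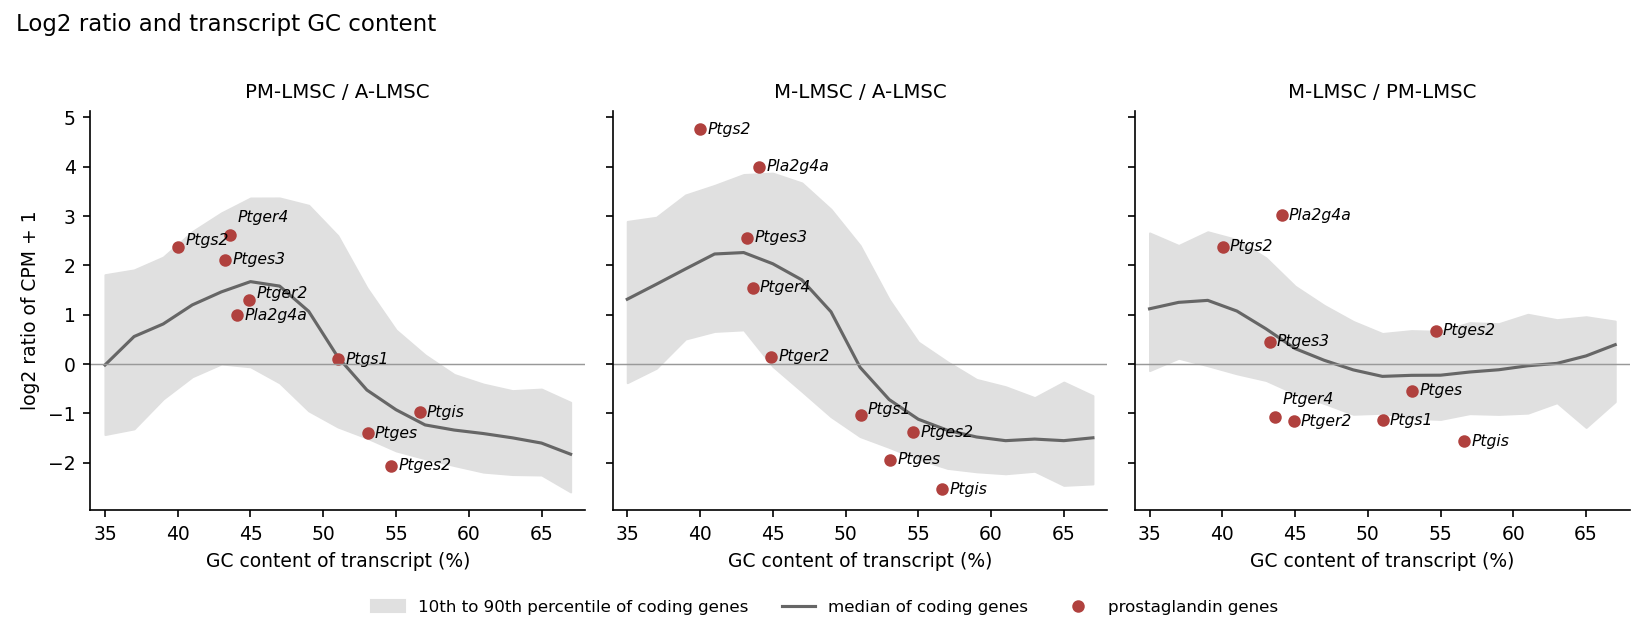
Log2 ratio of CPM + 1 (y axis) against the GC content of the transcript (x axis, %) for the 9 measured prostaglandin genes (red points) over the median (line) and the span of the 10th to 90th percentile (grey) of protein-coding genes in GC bins. Ptgs2 and Pla2g4a lie above the grey span in M-LMSC over A-LMSC and Pla2g4a far above it in M-LMSC over PM-LMSC, while Ptges3 lies close to the median line in both.

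Other enzymes of the pathway were lower in the later stages more often than higher. For this list and those below, the counts are to be read beside the shares over all measured genes. These were 35.0% higher and 25.0% lower for PM-LMSC over A-LMSC, and 41.0% and 27.7% for M-LMSC over A-LMSC. For M-LMSC over PM-LMSC they were 17.3% and 7.85%. Of 23 listed phospholipases, prostanoid synthases and prostaglandin-metabolising enzymes, 14 were measured in each comparison with A-LMSC. In PM-LMSC 3 were at least 2-fold higher and 7 lower, with a median of -0.94 (0.19 for all genes), and in M-LMSC 3 were higher and 7 lower, with a median of -0.98 (0.34 for all genes). Removing the trend gave medians of -0.18 and 0.15, so the direction in M-LMSC was not kept. For M-LMSC over PM-LMSC, 0 of 13 were higher and 1 was lower, with a median of 0.27. Pla2g15, a lysosomal phospholipase, had 225, 65.8 and 44.1 CPM in stage order. Mgll, the monoacylglycerol lipase that can also supply arachidonic acid, had 88.9, 49.4 and 19.1 CPM, and like Pla2g15 it was lowest in M-LMSC. For M-LMSC over A-LMSC, the log2 ratios of -2.32 for Pla2g15 and -2.16 for Mgll were -1.09 and -1.17 with the trend removed. Ptgr2, a prostaglandin reductase, had 5.17, 28.6 and 35.0 CPM, and Akr1b8, an aldo-keto reductase, had 41.6, 129 and 155 CPM. The Ptgr2 log2 ratios over A-LMSC of 2.26 in PM-LMSC and 2.54 in M-LMSC were 0.80 and 0.53 with the trend removed. Over A-LMSC, the log2 ratio of Akr1b8 was 1.60 in PM-LMSC and 1.88 in M-LMSC, and the trend correction gave 1.69 and 2.08.

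Among 11 other prostanoid receptors and transporters, 8 were measured. For PM-LMSC over A-LMSC 1 was higher and 1 lower (median 0.41), for M-LMSC over A-LMSC 1 was higher and 4 lower (median -0.82), and for M-LMSC over PM-LMSC 1 was higher and 2 lower (median -0.39). Ptgir, the prostacyclin receptor, had 126, 200 and 20 counts, or 11.4, 15.6 and 1.16 CPM in stage order. Its log2 ratios for M-LMSC of -2.52 against A-LMSC and -2.94 against PM-LMSC, and -1.50 and -2.65 with the trend removed, had the same direction as those of the prostacyclin synthase Ptgis. Slco2a1, the uptake carrier of prostaglandins, had 346, 488 and 161 CPM and was lowest in M-LMSC too. Abcc4, an exporter of PGE2, had 11.6, 44.1 and 25.6 CPM, and its log2 ratio for M-LMSC over A-LMSC of 1.08 was -0.02 with the trend removed. Tbxa2r, the thromboxane receptor, had 32.4, 2.66 and 9.69 CPM, and its log2 ratio for M-LMSC over A-LMSC of -1.64 was 0.20 with the trend removed.

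Downstream of EP2 and EP4, 13 parts of the Gs and cyclic AMP pathway were measured, with no shared direction. In PM-LMSC 5 were higher and 5 lower than in A-LMSC (median -0.45), in M-LMSC 3 were higher and 6 lower (median -0.99), and M-LMSC over PM-LMSC gave 1 higher and 2 lower (median -0.11). Prkar2a, a regulatory subunit of protein kinase A, had 3.63, 84.5 and 60.4 CPM in stage order, and Prkacb, a catalytic subunit, had 5.62, 30.5 and 69.9 CPM. Adcy7, an adenylyl cyclase, was highest in PM-LMSC, at 9.25, 53.6 and 17.9 CPM. With the trend removed, the log2 ratios over A-LMSC in PM-LMSC and M-LMSC were 2.67 and 2.21 for Prkar2a. They were 0.42 and 1.26 for Prkacb and 2.12 and 0.77 for Adcy7. Creb1, the factor that binds the cyclic AMP response element, had 1.27, 6.48 and 13.1 CPM, but its log2 ratio for M-LMSC over A-LMSC of 2.64 was -0.10 with the trend removed.

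Of 12 genes known to respond to cyclic AMP, 11 were measured in PM-LMSC over A-LMSC, with 6 higher and 1 lower (median 1.09). The shares over all genes were 35.0% and 25.0%, and the median of all genes was 0.19. In M-LMSC over A-LMSC 6 of 12 were higher and 2 lower (median 1.01). All genes there gave 41.0% and 27.7%, with a median of 0.34. Removal of the trend left medians of 0.41 and 0.21. For M-LMSC over PM-LMSC, 2 were higher and 4 lower (median -0.40). Areg, a growth factor that PGE2 is known to induce, had 13, 118 and 226 counts, or 1.18, 9.22 and 13.1 CPM in stage order. Pde4b, a cyclic AMP phosphodiesterase, had 4.08, 18.5 and 24.9 CPM. Nr4a3, an orphan nuclear receptor, had 4, 87 and 57 counts and was highest in PM-LMSC. Per1, a clock gene, was lower at the later stages, at 81.0, 32.0 and 14.4 CPM. With the trend removed, the log2 ratios over A-LMSC in PM-LMSC and M-LMSC were 1.37 and 1.74 for Areg and 0.13 and 0.29 for Pde4b. They were 0.88 and 0.01 for Nr4a3 and -0.30 and -1.24 for Per1. Only those of Areg and that of Per1 in M-LMSC then stayed past 2-fold.

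Known inducers and regulators of Ptgs2 gave a median of -0.34 for PM-LMSC over A-LMSC (4 higher and 5 lower of 11 measured), 0.28 for M-LMSC over A-LMSC (5 higher and 5 lower) and 0.03 for M-LMSC over PM-LMSC (4 higher and 1 lower). Il1a, a cytokine that induces Ptgs2, had 0, 102 and 682 counts in stage order, and lay at least 29.3-fold higher in PM-LMSC than the floor of 3 counts in A-LMSC, and M-LMSC lay at least 146-fold higher than that floor. The Il1a level was higher in M-LMSC than in PM-LMSC, by 2.18 on the log2 scale and by 1.19 with the trend removed. Il1r1, the receptor of Il1a, had 5.44, 119 and 40.9 CPM and was highest in PM-LMSC. Its log2 ratio for M-LMSC over A-LMSC of 2.70 was 0.07 with the trend removed. Cebpb and Cebpd encode factors that bind C/EBP sites such as the one in the Ptgs2 window. Cebpb had 532, 27.7 and 147 CPM and Cebpd 872, 97.1 and 219 CPM. Both were highest in A-LMSC and lowest in PM-LMSC. Their log2 ratios for M-LMSC over A-LMSC of -1.84 and -1.99 were 0.08 and -1.85 with the trend removed. For M-LMSC over PM-LMSC they were 2.37 and 1.16, and 2.13 and 1.47 with the trend removed. The part of these inducers and regulators in the Ptgs2 level was not tested. The plot of the wider pathway shows the spread of each list.

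**Figure D5:**
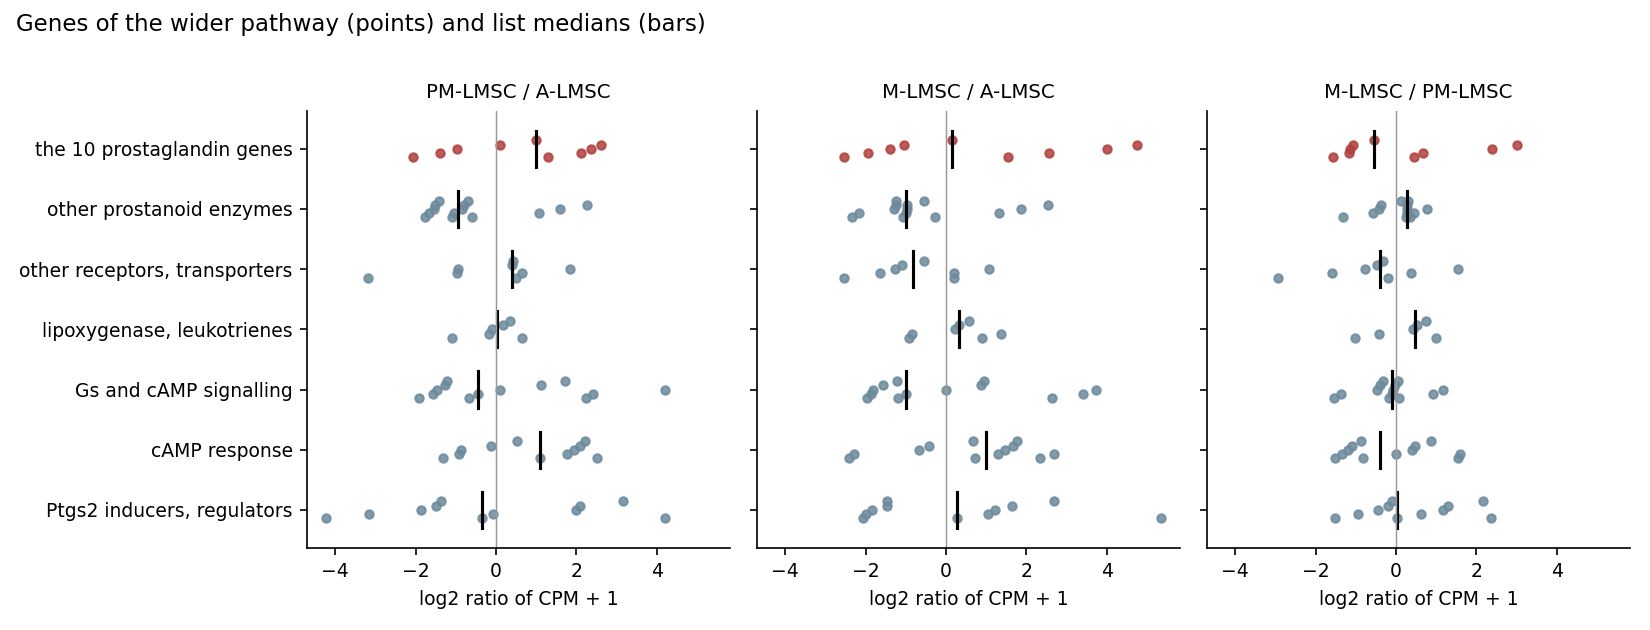
Log2 ratio of CPM + 1 (x axis) of each measured gene (points) in the 10 prostaglandin genes (red) and in 6 lists of the wider pathway (blue), with the median of each list as a bar, for PM-LMSC over A-LMSC, M-LMSC over A-LMSC and M-LMSC over PM-LMSC. Each list holds points on both sides of 0 in both comparisons with A-LMSC.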

How the data were processed

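Total RNA of LMSCs from MMTV-PyMT mice was sequenced, with 1 library per stage. TopHat2 2.0.9 and mm10 are named in the submitters' processing notes. What counted the reads, with which annotation and whether by strand, is not given in the sources used here. The authors deposited raw counts for each gene and, beside them, FPKM scaled to gene length and library size. Of 34748 lines, 6 with incomplete values (3 genes) were left out.

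CPM were computed from the deposited counts with TMM factors (edgeR 4.0.16, R 4.3.3). Differences are log2 ratios with a pseudocount of 1, counted at 2-fold where the higher library reached 1 CPM. No test could be run on single libraries. Levels were compared between genes by FPKM, and shares of counts are given for their intervals. The FPKM rest on the depositors' gene lengths, which need not equal those of the longest transcripts, so comparisons between genes hold for that measure. Transcript GC content, length and 3′ UTRs came from the longest GENCODE M21 transcripts, and a trend with GC content and then length was fitted by lowess (span 0.3) on protein-coding genes. RefSeq promoter windows were found for 9 of 10 genes. The other alternatives were pseudocounts of 0.1 and 5, median-of-ratios factors (DESeq2 1.42.0), upper-quartile factors, library totals, FPKM, no minimum and a minimum of 5 CPM. Scripts ran in Python 3.11.15 (scipy 1.17.1, pandas 2.3.3, numpy 2.4.6; trend by statsmodels 0.14.6; plots by matplotlib 3.10.9) and were tested on simulated data.

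The members and the 13 other lists were chosen with earlier results of these data known. All members were named. From each pathway list, up to 4 measured genes with the largest absolute log2 ratio in any comparison were named, and from marker and control lists the first 3.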

Additional observations from a re-analysis of the deposited data

How the results depend on the processing

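Across the 9 alternatives, Ptgs2 kept its direction and its 2-fold difference in each comparison, as did Pla2g4a in both comparisons of M-LMSC, Ptges in both comparisons with A-LMSC and Ptgis in M-LMSC over PM-LMSC. Removing the GC and length trend changed most. It turned the members' median to -0.022 in PM-LMSC over A-LMSC and to -0.74 in M-LMSC over A-LMSC, Ptger2 to -0.37 in PM-LMSC over A-LMSC and Ptger4 to -0.63 in M-LMSC over A-LMSC. The values of both receptors are open to overcorrection at few counts (above). Removing the trend gave 2 higher members in PM-LMSC over A-LMSC, against 18.9% of all measured genes. In M-LMSC over A-LMSC it gave 2 higher and 2 lower ones, against 18.8% and 18.7%. The lower ones were Ptges and Ptger2, the last of which was not lower otherwise. The members' median in M-LMSC over A-LMSC was also -0.032 with upper-quartile factors, -0.48 with FPKM and -0.056 with no minimum. In that comparison 2 members were lower with library totals and 2 with FPKM, against 13.7% and 12.2% of all genes. In M-LMSC over PM-LMSC 2 were lower with a pseudocount of 5, 1 with library totals and 1 with FPKM. All genes gave 4.76%, 5.18% and 3.69% there. The Ptgs2 shares by FPKM were 6.74%, 26.7% and 80.8% in stage order. With the trend removed, as alternatives chosen after seeing the data, they were 11.7% in PM-LMSC and 38.4% in M-LMSC with A-LMSC kept as counted, and 23.4% in A-LMSC and 42.6% in PM-LMSC with M-LMSC kept. List medians that changed sign were those of the lipoxygenase branch in PM-LMSC over A-LMSC (-0.083 with median-of-ratios factors, -0.26 with upper-quartile factors, -0.21 with the trend removed), of Gs and cyclic AMP parts (0.13 with library totals and 0.13 with FPKM in M-LMSC over PM-LMSC, and with the trend removed 0.034 in PM-LMSC and 0.10 in M-LMSC over A-LMSC), of Ptgs2 regulators (-0.0097 with no minimum and -0.030 with 5 CPM in M-LMSC over PM-LMSC, -0.21 with 5 CPM in M-LMSC over A-LMSC) and of other prostanoid enzymes (0.15 with the trend removed in M-LMSC over A-LMSC). The cause was not tested, except that another minimum changes which genes enter a median. No paired analysis was possible because each stage had 1 library. Depth limits Hpgd, Ptger2 and Ptger4 in A-LMSC, with 6, 29 and 14 counts, and no interval covers the spread between mice or cultures.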

Other observations

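Beside the prostaglandin branch, arachidonic acid can enter the lipoxygenase branch, which leads to leukotrienes. Of 16 listed genes of that branch, 6 were measured in PM-LMSC over A-LMSC, 7 in M-LMSC over A-LMSC and 6 in M-LMSC over PM-LMSC, with medians of 0.04, 0.32 and 0.48, and 0, 1 and 1 of them at least 2-fold higher and 1, 0 and 1 lower. Their summed level was 77.1, 114 and 95.5 CPM in stage order. Alox5ap, the partner of the leukotriene-forming lipoxygenase, had 20, 28 and 10 counts in stage order. Aloxe3, an epidermal lipoxygenase, had 1, 5 and 31 counts, Ltb4r2, a leukotriene receptor, 16, 2 and 5 counts, and Ephx2, the soluble epoxide hydrolase, 6.62, 8.75 and 13.1 CPM.

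Chosen after their values were seen, Ptgds and Hpgds, the prostaglandin D2 synthases, and their receptors Ptgdr and Ptgdr2 had 0 counts in each library, below the floor of 0.272, 0.234 and 0.174 CPM in stage order. The remaining PGE2 receptors, chosen in the same way, were low: Ptger1 had 39, 17 and 15 counts and Ptger3 had 8, 12 and 6 counts in stage order.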
